A study of Mus musculus with 3 samples.

Results

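The genes of the proteasome were examined in RNA that was immunopurified with tagged ribosomes from mouse cerebral cortex. Members were all rows whose symbol begins with Psm, followed by a letter from a to g and a number, with or without a closing letter. This rule found 49 of the 32531 gene rows. They comprise 7 alpha and 7 constitutive beta subunits of the 20S core, 5 immune, thymic or testis forms of core subunits, 6 ATPases, 3 non-ATPase base subunits and 8 lid subunits of the 19S regulator, 3 chaperones of 19S assembly, 4 chaperones of 20S assembly, 5 activator genes and the inhibitor Psmf1.

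The 3 libraries form 1 group, without treatment: cortical immunoprecipitates of adult mice from line Kcnip2-TRAP NIDA115, strain C57BL/6J, numbered as replicates 1 to 3 in the titles. All carry the Kcnip2-EGFP/Rpl10a transgene, in which ribosomal protein L10a is fused to a green fluorescent protein and driven by regulatory sequences of Kcnip2, a gene for an auxiliary subunit of potassium channels. Translating ribosome affinity purification (TRAP) recovers messenger RNA bound to such ribosomes from the cells that use the transgene. No input or untagged library was analysed here, so levels can be described and enrichment cannot, and in bulk tissue fewer cells of a type and less RNA per cell cannot be told apart. The labels do not say whether the libraries came from separate animals, so the spread between them may be technical.

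The proteasome is the protease of the cytosol and nucleus that degrades proteins tagged with ubiquitin. Its barrel, the 20S core, is a stack of alpha rings around beta rings, with the active sites on the inner face of the beta rings, and its 19S cap binds ubiquitin, removes it, unfolds the substrate with a ring of ATPases and feeds it into the core. Within the core, and within a cap, each subunit is present in equal number, and dedicated chaperones that do not remain in the finished particle guide assembly. In neurons the proteasome is known for turnover of synaptic proteins.

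Depth was 11602248, 13635132 and 14174384 gene counts in replicates 1, 2 and 3. Levels are CPM, that is counts for every 1000000 of the TMM-scaled library size, and comparisons between genes use CPM per kilobase, by default of union exon, the length of all annotated exons of a gene. All 5 neuronal markers examined were detected (at least 1 CPM in every library), beside 64.9% of all genes with at least 1 read. Their summed level was 37150 to 43096 CPM, against 111 to 187 CPM for 5 astrocyte, 419 to 594 CPM for 5 oligodendrocyte, 33.5 to 55.6 CPM for 6 microglial and 12.9 to 18.5 CPM for 5 endothelial and mural markers. The sum of 5 nuclear RNAs, Malat1 the largest, was 10651, 3527 and 2431 CPM in replicates 1, 2 and 3.

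As a pool, proteasome genes took a like share of each library. They held 32117 counts in replicate 1, 37565 in replicate 2 and 39090 in replicate 3, which is 0.277%, 0.276% and 0.276% of gene counts. The exact 95% binomial intervals, which cover counting error only, were 0.274% to 0.280%, 0.273% to 0.278% and 0.273% to 0.279%, and all of them overlapped. Of the 49 members, 43 (87.8%) were detected, beside 64.9% of all genes with at least 1 read. The median member was at 49.9 CPM, beside 21.3 CPM for the 12130 detected genes of the tables. Per kilobase of union exon, the 43 detected members had a median of 18.7 CPM, and the 11766 detected genes with a known length 4.77 CPM. The members not detected were Psmb8, Psmb9, Psmb11, Psma8, Psmg4 and Psme2b.

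Across roles, the medians per kilobase of the structural subunits of the core and the cap lay above those of the chaperones and the inhibitor. The median level per kilobase of union exon was 24.9 ± 1.14 CPM (SD, n = 3) for alpha, 25.6 ± 3.40 for constitutive beta, 31.1 ± 1.52 for ATPase, 16.04 ± 0.634 for non-ATPase base and 21.2 ± 1.61 for lid subunits. It was 7.69 ± 0.434 for 19S assembly chaperones, 4.40 ± 0.528 for 20S assembly chaperones and 7.004 ± 1.96 for activators. The inhibitor, a class of 1 gene, was at 4.07 ± 0.624. Per coding length the inhibitor came nearer to the non-ATPase base median, at 32.3 against 38.5 CPM per kilobase. The activator median was the value of Psme2 in every library and does not describe the class, with Psme3 at 48.8, Psme1 at 34.9, Psme4 at 5.40 and Psme2b at 1.25. By share of the members' counts, ATPases took 22.3% ± 0.770 and lid genes 21.5% ± 1.09, alpha genes 15.4% ± 0.671, constitutive beta genes 13.9% ± 0.389, non-ATPase base genes 11.4% ± 0.509 and activators 10.1% ± 0.151. The 17 cap subunits and the 14 constitutive core subunits did not stand apart: the log2 difference between their medians per kilobase was -0.22, 0.23 and 0.0078 in replicates 1, 2 and 3. Its mean, 0.0045 ± 0.22, took either sign with other divisors, at 0.23 per kilobase of principal transcript and -0.40 per kilobase of coding sequence, so no order of cap and core is given.

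**Figure D1:**
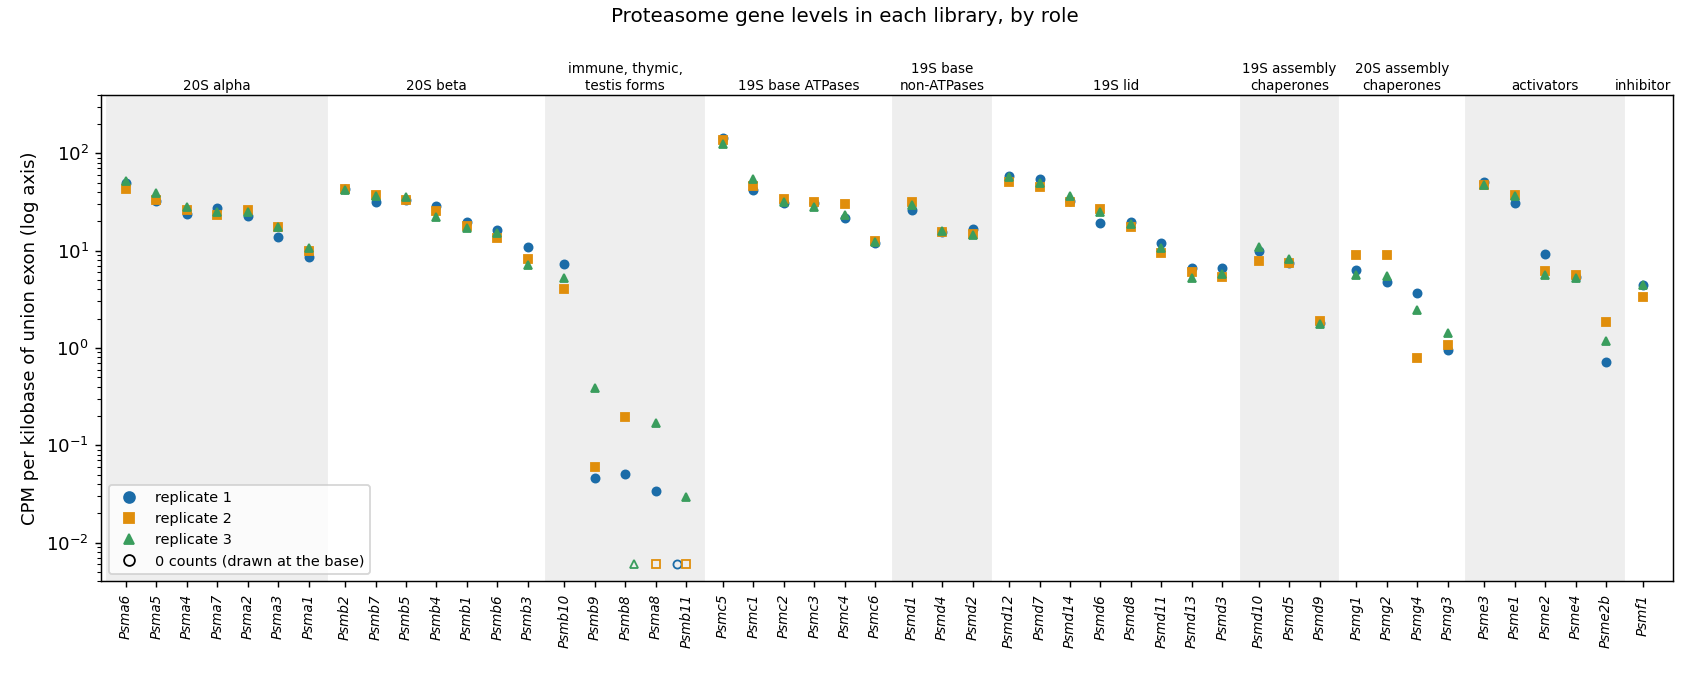
Level of all 49 proteasome genes in CPM per kilobase of union exon (log axis), with a marker for each of the 3 libraries and genes grouped by role. Open symbols at the base stand for 0 counts. Psmc5 leads at 135 CPM per kilobase and Psmb8, Psmb9, Psmb11 and Psma8 lie below all others.

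Subunits that sit in equal number within the cap, or within the core, were unequal in level. The values that follow take core and cap genes together, although core and cap need not be present in equal number. Over the 31 constitutive core and cap subunits, the SD among genes of log2 CPM per kilobase was 0.98 with union exon length, 0.85 with the length of the principal transcript (the best-ranked coding transcript) and 0.84 with coding length, whereas the median SD between libraries was 0.14. The whole range was 22.9-fold, 13.9-fold and 8.54-fold. Psmc5 was the highest under all 3 divisors. The lowest was Psmd3 per union exon and Psmd13 under the other divisors, so both ends of each range were cap genes. Places within a role are given for the union exon divisor, and many of them change with another.

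**Figure D2:**
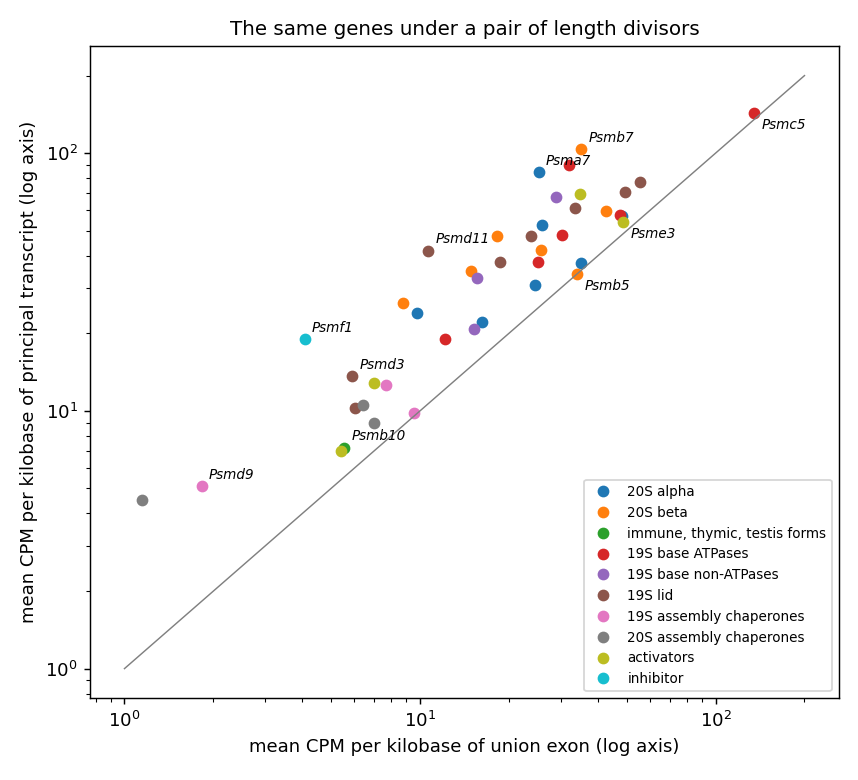
Mean level of the 43 detected members per kilobase of union exon (horizontal, log axis) and per kilobase of principal transcript (vertical, log axis), coloured by role, with the grey line marking equal values. Psmc5 leads on both axes, while Psmf1 (4.07 against 18.96 CPM per kilobase) and Psmd11 (10.7 against 41.9) lie well above the line.

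Among ATPases, which form the ring that unfolds substrates, Psmc5 (chromosome 11, 106256154 to 106263120, plus strand, mm10) was at 201, 192 and 172 CPM in replicates 1, 2 and 3. Per kilobase of union exon it reached 135 ± 10.8 CPM (SD, n = 3), and Psmc1, second by this divisor, 47.5 ± 6.48. Their libraries did not overlap, with 123 to 144 CPM per kilobase for Psmc5 and 41.8 to 54.6 for Psmc1. A pseudogene, Gm9575, matches 79.45% of the Psmc1 transcript at 95.88% identity, so the level and place of Psmc1 are uncertain. Psmc2 was at 154, 170 and 159 CPM, or 32.0 ± 1.60 per kilobase. It was second in place of Psmc1 per principal transcript (90.2 against 57.7) and per coding length (113 against 69.6). Psmc3 was at 30.1 ± 1.92 and Psmc4 at 25.2 ± 4.41 CPM per kilobase of union exon. The libraries of Psmc3 overlapped with those of Psmc2 and of Psmc4, and those of Psmc2 (30.7 to 33.8) lay above those of Psmc4 (21.9 to 30.2). Psmc6 was the lowest at 41.6, 43.4 and 42.7 CPM, or 12.2 ± 0.271 per kilobase. It was 11.1-fold below Psmc5 per union exon, 7.51-fold per principal transcript and 4.24-fold per coding length.

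The rest of the 19S base holds the large scaffold proteins Psmd1 and Psmd2 and the ubiquitin receptor Psmd4. Psmd1 was at 189, 228 and 212 CPM in replicates 1, 2 and 3, the highest mean of the 49 members without a length divisor, and Psmd2 at 67.7, 59.1 and 57.7 CPM. The groups did not overlap, and within a library Psmd1 exceeded Psmd2 by 0.92 ± 0.25 on the log2 scale per kilobase of union exon, in 3 of 3 libraries (1.70 per principal transcript). Gm5422 matches 95.88% of the Psmd2 transcript at 96.24% identity, so the level of Psmd2 and this ratio are uncertain. With 3 libraries an exact sign-flip test cannot go below p = 0.25, so ratios between members are given with their spread and no p. Psmd4 was steady, at 43.2, 43.7 and 44.3 CPM.

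In the lid, which removes ubiquitin chains, Psmd14 is the deubiquitinase and Psmd7 its structural partner. Psmd14 was at 90.6, 90.02 and 103 CPM and Psmd7 at 122, 101 and 111 CPM in replicates 1, 2 and 3, a log2 ratio of -0.55 ± 0.17 per kilobase of union exon and -0.20 ± 0.17 per principal transcript, the latter about the size of its spread. Psmd12, a lid scaffold subunit, was the highest of the 8 at 156, 134 and 151 CPM, or 55.5 ± 4.33 per kilobase of union exon. Per coding length Psmd7 led, at 116 against 107 CPM per kilobase for Psmd12. Psmd3 was the lowest at 32.8, 26.6 and 28.4 CPM, or 5.89 ± 0.638 per kilobase, close to Psmd13 at 6.03 ± 0.705. Psmd6 had the largest quasi-dispersion ratio of the members tested, at 53.7, 75.7 and 69.7 CPM. Psmd8 and Psmd11, also lid subunits, were at 57.1 ± 3.02 and 68.1 ± 7.43 CPM.

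In the outer rings of the core, the alpha subunits gate entry of substrates. Psma6 was the highest of the 7 per kilobase of union exon at 48.3 ± 4.72 CPM (61.2, 53.2 and 64.6 CPM in replicates 1, 2 and 3) and Psma1 the lowest at 9.73 ± 1.01 (25.4, 29.6 and 31.2 CPM), a 4.97-fold range. The order among alpha genes was not stable to the divisor: per principal transcript Psma7 led and Psma3 was the lowest, in a 3.83-fold range, and per coding length Psma2 led. Psma2, without a length divisor the highest alpha gene, was at 82.6, 96.6 and 90.7 CPM. Psma4 and Psma5 were at 61.3 ± 4.75 and 46.3 ± 4.64 CPM. Both levels are uncertain, because pseudogenes match 66.87% of the Psma4 transcript (Gm6542, 96.81% identity) and 76.51% of the Psma5 transcript (Gm8394, 98.63%).

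Of the beta subunits, Psmb5, Psmb6 and Psmb7 carry the active sites, with chymotrypsin-like, caspase-like and trypsin-like specificity, and Psmb1, Psmb2, Psmb3 and Psmb4 are structural. Psmb5 (chromosome 14, 54614119 to 54618022, minus strand, mm10) was at 29.7, 30.01 and 32.2 CPM in replicates 1, 2 and 3. Psmb6 (chromosome 11, 70525367 to 70527858, plus strand) was at 30.3, 25.1 and 28.5 CPM, and Psmb7 (chromosome 2, 38588036 to 38644087, minus strand) at 107, 129 and 124 CPM. Psmb7 thus lay above both other catalytic genes in every library by CPM. Per kilobase of union exon, however, Psmb7 at 35.1 ± 3.26 and Psmb5 at 34.07 ± 1.51 CPM were within their spread of each other, with Psmb6 at 14.9 ± 1.42, and per principal transcript they were at 103, 34.07 and 35.03 CPM. Exons of Psmb7 overlap those of Nek6 on the opposite strand over 405 bases, and the strand setting of the counting was not given in the sources used here. A pseudogene, Gm3375, matches 88.43% of the Psmb5 transcript at 98.87% identity, and Mir686 overlaps Psmb5 on the same strand over 109 bases. The level of Psmb5 and the shares set against it are therefore uncertain. Psmb6-ps2 matches 89.85% of the Psmb6 transcript at 92.06% identity, so the same limit holds for Psmb6.

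Among the structural beta genes, Psmb2 led per kilobase of union exon at 42.7 ± 0.511 CPM, although Psmb1 led per coding length (116 against 85.3), and it was among the steadiest members, at 51.9, 51.8 and 50.8 CPM in replicates 1, 2 and 3. Psmb1 was at 90.02, 82.1 and 78.8 CPM and Psmb4 at 56.6, 49.8 and 43.3 CPM. Psmb3 was the lowest at 25.2, 18.9 and 16.4 CPM, or 8.76 ± 1.97 per kilobase, under all 3 divisors. Psmb3 also has 7 annotated pseudogenes that match at least 50% of its transcript at 90% identity or more, so its level is uncertain.

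The genes of the immunoproteasome, whose subunits replace the catalytic ones in immune cells and after interferon, were at or near the counting limit except Psmb10. Psmb8 (chromosome 17, 34197721 to 34201454, plus strand), the counterpart of Psmb5, had 2, 9 and 0 counts in replicates 1, 2 and 3, and Psmb9 (chromosome 17, 34181987 to 34187764, minus strand), the counterpart of Psmb6, had 2, 3 and 20. Psmb10 (chromosome 8, 105935735 to 105938444, minus strand), the counterpart of Psmb7, had 145, 94 and 127 counts, or 12.4, 6.93 and 9.003 CPM. A count of 0 allows up to 3 counts, here 0.213 to 0.256 CPM. The thymus gene Psmb11 had 0, 0 and 2 counts and the testis gene Psma8 1, 0 and 6.

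As a share of the counts of each pair, Psmb8 made up 0.571%, 2.16% and 0% of Psmb8 plus Psmb5. For 0 of 454 counts the exact 95% interval reaches 0.809%. Psmb9 made up 0.560%, 0.875% and 4.74% of Psmb9 plus Psmb6, so that replicate 3 stood above the others, with an exact 95% interval of 2.92% to 7.22%. Psmb10 made up 10.3%, 5.11% and 6.77% of Psmb10 plus Psmb7, and the interval of replicate 1, 8.79% to 12.05%, lay above those of the other replicates. Over all 3 libraries Psmb11 supplied 0.165% (0.02% to 0.595%) of Psmb11 plus Psmb5 and Psma8 0.230% (0.0926% to 0.474%) of Psma8 plus Psma7. Divided by union exon length, the shares were 0.246% ± 0.303 for Psmb8, 1.07% ± 1.22 for Psmb9 and 13.8% ± 4.60 for Psmb10 (SD, n = 3). Per principal transcript the share of Psmb10 was 6.62% ± 2.40. In log2 terms Psmb10 lay below Psmb7 by -2.10, -3.18 and -2.76 per kilobase of union exon in replicates 1, 2 and 3, so it was the lower of the pair in 3 of 3 libraries. Replicate 1, where its share was highest, also held the most nuclear RNA. The part of that difference in this share was not tested.

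**Figure D3:**
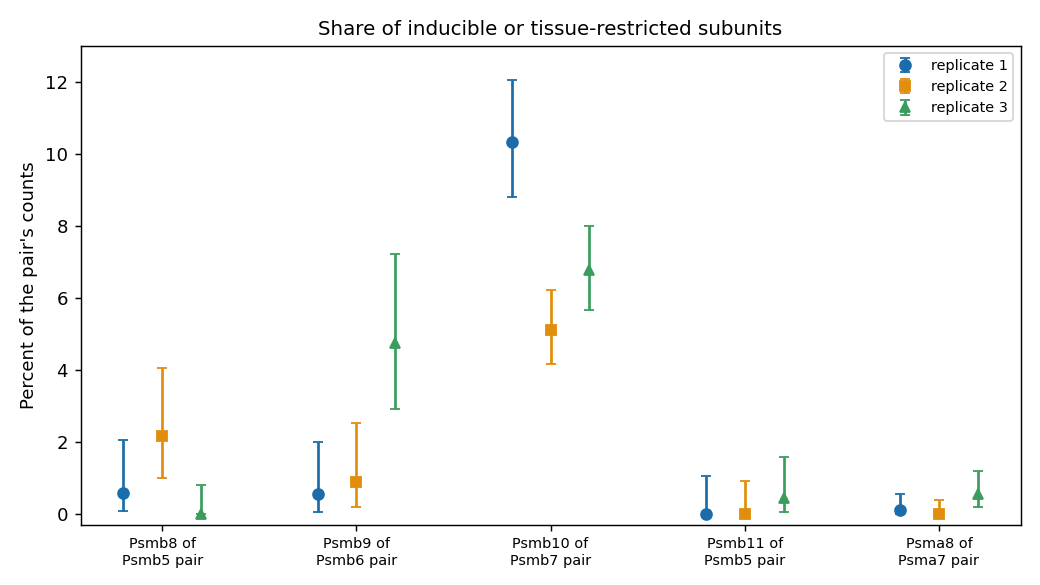
Share of each inducible or tissue-restricted gene in the counts of its pair with the constitutive gene (percent), for each of the 3 libraries, with exact 95% binomial intervals that cover counting error only. Psmb10 lies at 5.11% to 10.3%, and the shares of the other 4 genes lie below 5% in every library.

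Genes that respond to interferon or serve antigen presentation, and markers of microglia, cells known to express immunoproteasome genes, are given beside these values. Of 13 interferon and antigen presentation genes, 8 were detected, beside 64.9% of all genes with at least 1 read. The 13 genes summed to 122, 135 and 147 CPM in replicates 1, 2 and 3, of which B2m supplied 69.7, 79.9 and 84.9 CPM. Tap1, which lies head to head with Psmb9 and shares 212 exonic bases with it on the opposite strand, had 3, 6 and 2 counts. Tap2 had 0, 3 and 15 counts. The 6 microglial markers summed to 33.5, 55.6 and 51.2 CPM, and 3 of 6 were detected, beside the same 64.9%. Csf1r was at 11.01, 27.4 and 21.1, Cx3cr1 at 11.1, 16.0 and 16.5 and P2ry12 at 10.4, 9.66 and 12.6 CPM. C1qa had 2, 6 and 10 counts, Aif1 3, 27 and 3 and Tyrobp 7, 1 and 1. The part of other cells in the counts of Psmb8, Psmb9 and Psmb10 was not tested.

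The promoters of these catalytic genes and their inducible counterparts are shown because the members of a pair take the same place in the beta ring. The windows are the 120 bases before the RefSeq start site (GRCm38.p6), with motif matches on either strand in capitals. For all of them but Psmb6 that start lies inside the span of the gene in GENCODE. Psmb7 has no entry in the table used.
Psmb5, chr14:54617996-54618115, minus strand: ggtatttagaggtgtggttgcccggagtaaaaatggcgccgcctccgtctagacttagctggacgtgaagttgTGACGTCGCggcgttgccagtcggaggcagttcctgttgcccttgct
Psmb6, chr11:70525237-70525356, plus strand: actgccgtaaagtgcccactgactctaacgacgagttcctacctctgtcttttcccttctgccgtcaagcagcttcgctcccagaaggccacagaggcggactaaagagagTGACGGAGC
Psmb8, chr17:34198075-34198194, plus strand: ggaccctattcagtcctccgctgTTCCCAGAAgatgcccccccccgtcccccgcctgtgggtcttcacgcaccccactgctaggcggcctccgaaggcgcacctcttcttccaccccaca
Psmb9, chr17:34187331-34187450, minus strand: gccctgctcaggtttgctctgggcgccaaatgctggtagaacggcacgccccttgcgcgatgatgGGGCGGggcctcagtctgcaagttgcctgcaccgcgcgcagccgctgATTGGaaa
Psmb10, chr8:105938393-105938512, minus strand: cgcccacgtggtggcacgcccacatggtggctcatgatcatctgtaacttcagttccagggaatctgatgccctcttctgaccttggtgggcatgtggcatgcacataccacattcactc

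The capitals mark TGACNNNGC, the core of the antioxidant response element bound by the proteasome regulator Nfe2l1, in Psmb5 (TGACGTCGC, beginning 47 bases before the start) and in Psmb6 (TGACGGAGC, 9 bases before). They mark TTCNNNGAA, the core of the GAS element bound by interferon-activated STAT factors, in Psmb8 (97 bases before), and CCAAT, read as ATTGG, and the Sp1 GC box GGGCGG in Psmb9. Psmb10 held no match in this stretch. Over the whole table window of 250 bases before to 50 after the start, TGACNNNGC occurred in 6 of 41 members with an entry (14.6%), beside 14% of 27025 genes. GGGCGG occurred in 23 of 41 (56.1%, beside 38.2%), CCAAT in 14 (34.1%, beside 41.1%), TATAAA in 4 (9.76%, beside 15.7%), the core of the interferon-stimulated response element in 5 (12.2%, beside 3.99%) and TTCNNNGAA in 3 (7.32%, beside 9.55%). These matches are letters in a window and were not tested against the levels.

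Activators other than the 19S cap differed widely. Psme3, which encodes the nuclear activator PA28 gamma, was at 151, 140 and 141 CPM in replicates 1, 2 and 3, and Psme1, a subunit of the cytosolic activator PA28, at 68.2, 82.9 and 80.3 CPM. Psme2, which encodes the partner of Psme1 in that ring, was at 16.3, 10.9 and 9.85 CPM. It lay below Psme1 in 3 of 3 libraries, by a log2 ratio of -2.33 ± 0.52 per kilobase of union exon, 5.04-fold, and -2.45 per principal transcript. Psme2b matches 82.5% of the Psme2 transcript at 99.4% identity and had 7, 21 and 14 counts, so reads that fit both genes cannot be assigned and the level of Psme2 is uncertain. Psme4, which encodes the large activator PA200, was at 44.8, 46.6 and 44.3 CPM, or 5.40 ± 0.144 per kilobase of union exon. Psme1 was below Psme3 by a log2 ratio of -0.48 ± 0.21 per kilobase of union exon and above it by 0.36 per principal transcript, so their order depended on the divisor.

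The inhibitor and the chaperones, apart from Psmd5, were below the median member in CPM. Psmf1, which encodes PI31, an inhibitor of the 20S core that also links proteasomes to axonal transport, was at 28.8, 21.6 and 28.4 CPM. Per kilobase of union exon that is 4.07 ± 0.624 CPM, and per principal transcript 18.96. Of the chaperones of 19S base assembly, Psmd5 was at 53.3, 54.3 and 59.2, Psmd10 (gankyrin) at 14.7, 11.6 and 15.9 and Psmd9 at 13.2, 13.6 and 12.9 CPM in replicates 1, 2 and 3. Psmg1 and Psmg2, which form a dimer that starts the alpha ring, were at 8.45, 12.1 and 7.59 CPM and at 8.36, 15.5 and 9.57 CPM, so both were highest in replicate 2. Psmg3 was at 2.73, 3.10 and 4.11 CPM, and Psmg4, its dimer partner, had 24, 6 and 19 counts and fell under 1 CPM in replicate 2. The order of Psmg1 and Psmg2 turned with the divisor, from 0.15 ± 0.21 in log2 per union exon to -0.20 per principal transcript.

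Between libraries no proteasome gene passed the test for variation beyond that of genes at its level. Of 12509 genes past the count filter, 12 (0.0959%) passed edgeR's quasi-dispersion test at an adjusted p of 0.05, and of the 43 members tested 0 did. At an unadjusted p under 0.05 there were 0 of 43 members, beside 5.78% of all genes tested, and 0 members were called under any of the 6 alternative settings of this edgeR test. The smallest member p was that of Psmd6 (edgeR adjusted p = 0.971). The median F ratio of members was 0.517, beside 0.703 over all genes tested, and the median range over libraries was 0.27 in log2 CPM, beside 0.41. A range of 1 log2 unit or more occurred in 0 of 43 members and in 12.6% of genes. These ranges are not matched for level. The median was 49.9 CPM for all 49 members and 21.3 CPM for the 12130 detected genes, which are not the same sets as those past the filter. Members under the filter are left out of the ranges above, and their own went from 0.95 (Psmb11) to 2.42 (Psmb8). A missed threshold does not show that the libraries were alike for a gene, and genes under the filter are not covered by it.

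The widest ranges among the 43 were those of Psmg2 (0.88), Psmb10 (0.82), Psme2 (0.72), Psmg1 (0.66) and Psmb3 (0.62), in log2 CPM, and the narrowest those of Psmb2 (0.031), Psmd4 (0.037) and Psmc6 (0.063). Psmb10, Psme2 and Psmb3 were highest in replicate 1, and Psmg1 and Psmg2 in replicate 2. The median deviation of the 43 members from their own means was -0.00027, -0.024 and 0.006 in replicates 1, 2 and 3, beside 0.0013, 0.0011 and 0.00016 over all 12509 genes. The sum of the nuclear RNAs, by contrast, was 10651 CPM in replicate 1 and 2431 in replicate 3. By role, the counts of genes by library were as follows, with no test between roles. Of the 7 alpha genes, 5 were lowest in replicate 1, whereas of the 7 constitutive beta genes 5 were highest there. Of the 8 lid genes, 6 were highest in replicate 1 and 6 lowest in replicate 2. Over all genes past the filter, 36.6%, 32.4% and 31% were highest in replicates 1, 2 and 3, beside 41.9%, 32.6% and 25.6% of the 43 members. Lowest there were 36.4%, 32.2% and 31.4% of all genes, beside 41.9%, 30.2% and 27.9% of members. These counts by role were noticed after the values were seen, and the median deviations behind them were small, at -0.12, 0.11 and 0.11 in replicate 1 for alpha, beta and lid genes.

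**Figure D4:**
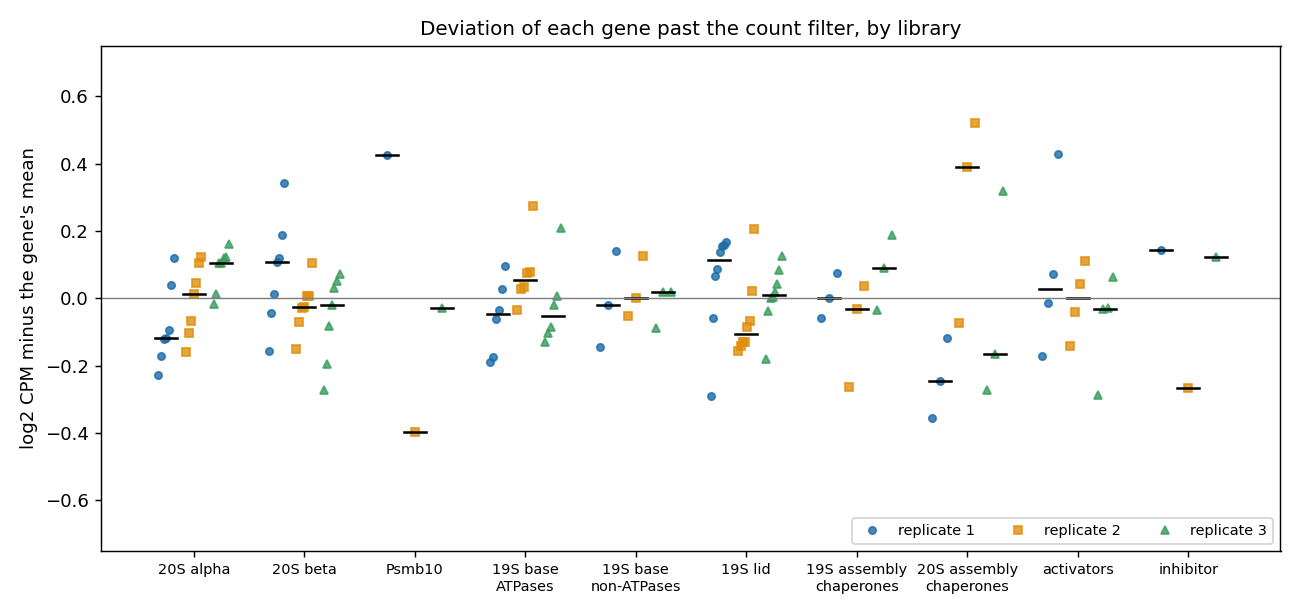
Deviation of log2 CPM from the gene's own mean over libraries for the 43 members past the count filter, by role (horizontal) and library (marker), with black bars at the median. Values centre on 0, and the 20S assembly chaperones reach a median of 0.39 in replicate 2.

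Other genes of the pathway were also detected for the most part, and none of them passed the test between libraries. The share detected over all genes with at least 1 read was 64.9%. Of 11 partners of the proteasome that the rule does not catch, 10 had a row, and those 10 were detected. Paaf1 had no row. Pomp, the maturation factor of the core, led at 184, 159 and 148 CPM in replicates 1, 2 and 3, followed by AI314180 (Ecm29), which tethers cap to core, at 124 ± 6.06 CPM and the thioredoxin-like cap protein gene Txnl1 at 95.7 ± 7.93 CPM. Pomp was at 31.4 CPM per kilobase of union exon, above each of the 4 Psmg genes, of which Psmg1 was the highest at 6.98. Of 6 genes for transcription factors of proteasome genes and their processing, 6 were detected, with Nfe2l1, the factor that raises proteasome genes when the proteasome is inhibited, at 296, 311 and 293 CPM, Vcp, the segregase that helps release it from the endoplasmic reticulum, at 128 ± 18.9 and Nfe2l2 at 39.5 ± 11.6 CPM. Of 13 shuttle and ubiquitin genes, 11 were detected, led by the ubiquitin-activating enzyme gene Uba1 at 363 ± 33.7, the shuttle gene Ubqln2 at 362 ± 37.3 and Ubqln1 at 193 ± 27.3 CPM. Ubb, a ubiquitin gene, was at 4.11 ± 0.742 CPM, and was named after its values were seen. Reads that align to more than 1 place are tallied apart from genes, and their part in this value was not tested. Of the genes tested, 0 of 10, 0 of 6 and 0 of 11 passed the edgeR test, beside 0.0959% of all genes, and 0, 1 and 0 had an unadjusted p under 0.05.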

How the data were processed

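RNA bound to tagged ribosomes was sequenced in 3 immunopurified cortex libraries of 1 group. The authors deposited a table of raw counts by gene symbol for each library. The submitters' processing notes name STAR 2.0.0e, HTSeq and mm10. Which annotation, counting mode and strand setting were used was not given in the sources used here. Reads outside features (12.8% to 16.4%), ambiguous (2.37% to 2.65%) or not uniquely aligned (13.8% to 19.4%) were left out of library sizes, as was the row named unknown, which held 0 counts.

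Counts were scaled by TMM (edgeR 4.0.16, R 4.3.3) to CPM and, with a prior count of 2, to log2 CPM. Genes past filterByExpr (minimum count 10) entered an intercept-only quasi-likelihood fit. Each quasi-dispersion was divided by the fitted trend and tested against an F distribution with the prior degrees of freedom of the bulk of genes. Benjamini-Hochberg adjustment was over all genes at 0.05. Simulated counts, with added spread only in genes of higher counts, served to test this procedure. The added spread was wider than the range of any member tested, so power at the ranges seen here was not measured. The gene-wise prior degrees of freedom of the robust fit failed on the simulated data and were not used, so the calls rest on this choice. GENCODE M21 (GRCm38, equivalent to mm10) supplied exon lengths and positions, with a length for all 49 members (23161 of 32531 rows matched by symbol, 773 by an older symbol). Copies were sought among its transcripts with blastn 2.17.0. Promoters came from RefSeq on GRCm38.p6; 41 of 49 members had an entry.

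All members are accounted for. Those named with values are the catalytic genes and their counterparts, the extremes of each role, all activators, inhibitor and chaperones, the 5 widest and 3 narrowest ranges and all members not detected; other members and list genes are named by their role. Members and lists were chosen with earlier results of these data known. The chi-square per degree of freedom between pairs of libraries was 12.3 to 28.5, so none is a second deposit of another. Whether libraries of 1 RNA sample would differ as much was not tested.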

Additional observations from a re-analysis of the deposited data

How the results depend on the processing

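The count of 43 detected members stayed between 42 (at 5 CPM) and 44 (at 0.5 CPM, or without replicate 2), and 0 members varied between replicates under every edgeR setting run, whereas the count over all genes went from 12 to 66 with no count filter, 5 without robust moderation and 4 without replicate 2. The length divisor moved many levels. The median of the immune, thymic and testis forms moved more, from -2.93 to 2.45 in log2, with only members past the low-count filter, which leaves Psmb10 alone. Under the same restriction the median of activators went from 2.79 to 3.96 and that of 20S assembly chaperones from 1.92 to 2.65. The log2 difference of cap and core medians was 0.0045 per union exon, 0.42 with no division, 0.23 per principal transcript and -0.40 per coding length. Psmb8 to Psmb5 was -8.40 in log2 and -6.49 with no division and -6.55 per coding length; Psmb10 to Psmb7 was -2.68 and -3.68, -3.66 and -3.86 with no division, per coding length and per principal transcript. The sign turned for Psme1 to Psme3 per principal transcript (0.36) and for Psmg1 to Psmg2 with no division (-0.22), per coding length (-0.35) and per principal transcript (-0.20). Psmg3 to Psmg4 went from -0.93 ± 1.03 to 1.45, 1.46 and 1.05 with no division, per coding length and per principal transcript; the divisor alone changed in these settings. Divisors from GENCODE coding and principal transcript lengths were chosen after seeing the data, and coding length from RefSeq proteins was not run. No paired analysis was possible because there is 1 group. Depth limits statements on Psmb8, Psmb9, Psmb11 and Psma8, whose 11, 25, 2 and 7 counts over 3 libraries give ratios that depend on the prior count.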

Other observations

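The 49 genes lie on 16 chromosomes, with 9 on chromosome 11 and 6 each on chromosomes 2 and 14, and 3 pairs of them are close neighbours. Psmb5 and the thymus gene Psmb11 lie 3410 bases apart on opposite strands of chromosome 14, at 30.6 and 0.0473 CPM. Psme1 and Psme2, which encode partners in the same activator ring, lie 5911 bases apart on opposite strands of the same chromosome, at 77.1 and 12.4 CPM. Psmb9 and Psmb8, both immunoproteasome genes, lie 9956 bases apart on chromosome 17, at 0.603 ± 0.706 and 0.278 ± 0.345 CPM, both under detection and in no steady order. They were the only neighbours among the members under 100 kilobases apart.

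Several members share sequence with other annotated genes. Of the 49, 9 have a copy at 95% identity or more over at least 50% of the principal transcript, most of them processed pseudogenes. At 90% identity or more there are 12, which adds Psmb6, Psmd14 and Psme1, so the levels of these are also uncertain. A730017L22Rik, which matches 92.0% of the Psmd11 transcript at 98.1% identity, was itself at 12.5, 8.85 and 10.6 CPM in replicates 1, 2 and 3, so the level of the lid gene Psmd11 is uncertain. Exons of 11 members overlap an exon on the opposite strand. Of those partners with a row in the tables, Slc39a13, a zinc transporter gene that overlaps Psmc3 over 215 bases, was the highest at 90.1, 47.1 and 42.2 CPM, while Psmc3 was at 80.04, 82.7 and 73.02 CPM.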
